A study of Mus musculus with 12 samples.

Results

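The 9 genes described here encode the transcription factors that set and hold hepatocyte identity, namely *Hnf4a*, *Nr5a2*, *Onecut1*, *Prox1*, *Cebpa*, *Cebpb*, *Foxa1*, *Foxa2*, and *Foxa3*. They were chosen by symbol, all 9 were matched to an Ensembl identifier among the 40551 in the count tables, and all 9 are among the 15070 genes with enough counts to be tested. The data are total RNA-seq libraries of 12 whole mouse livers, with 3 livers of each genotype. The genotypes are WT, Mcl1 KO, Mcl1 Sting1 DKO, and Sting1 KO. The Mcl1 KO livers lack the antiapoptotic gene *Mcl1* in hepatocytes through floxed alleles and a Cre driven by the albumin promoter, the Sting1 KO mice lack the innate immune adaptor *Sting1* in every cell, and the Mcl1 Sting1 DKO mice come from a cross of both lines. The labels give no age. In the study WT and Mcl1 KO livers were compared by transcriptomics at 2 months, and WT, Mcl1 KO, and Mcl1 Sting1 DKO mice were examined at both 2 and 12 months, so the age of each library labelled Mcl1 Sting1 DKO or Sting1 KO is not known here. The questions are whether the hepatocyte program of transcription factors changes in this liver disease model and whether it does so in mice that carry the *Sting1* deletion.

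Hepatocyte identity rests on a network in which several factors bind each other's promoters as well as those of liver genes. *Foxa1*, *Foxa2*, and *Foxa3* encode pioneer factors that open chromatin for other factors, *Hnf4a* and *Nr5a2* encode nuclear receptors that drive lipoprotein, clotting, and bile acid genes, and *Onecut1* (HNF6) encodes a cut-homeodomain factor. *Cebpa* and *Cebpb* encode bZIP factors of metabolism and of the acute-phase response, and *Prox1* encodes a homeodomain factor of liver and lymphatic endothelium.

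In Mcl1 KO livers 5 of the 9 factors fell, *Onecut1* by a factor of 4.97, *Foxa1* by 3.09, *Foxa2* by 2.33, *Cebpa* by 2.05, and *Nr5a2* by 1.49. None of the 9 was called higher. Of all genes tested, 20.2% were called in this comparison and 9.43% were called lower. In the libraries labelled Sting1 KO, with *Mcl1* intact, *Onecut1* differed from WT by -1.91 on the log2 scale, a difference that did not pass the threshold (edgeR adjusted p = 0.575). None of the 9 passed the test between the libraries labelled Mcl1 Sting1 DKO and Sting1 KO, where 0.803% of all genes were called. An antisense transcript of *Hnf4a*, *Hnf4aos*, was lower wherever *Mcl1* was deleted, by a factor of 3.84 in Mcl1 KO against WT and 4.06 in the libraries labelled Mcl1 Sting1 DKO against those labelled Sting1 KO, whereas *Hnf4a* itself did not pass the test in any comparison.

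The sequences just upstream of the start sites are shown for the 5 factors that fell and for *Hnf4a*, since factors of this network are known to bind each other's promoters. RefSeq windows were found for all 9 factors, 14 windows in all, and each was placed on GRCm39 by an exact match. The 250 bases before each start were searched on both strands for ATTGAT (the core bound by ONECUT factors), TGTTTAC (FOXA), CAAAGTCCA (HNF4A), TTGCGCAA (C/EBP), and CAAGGTCA (NR5A2). Capitals mark a match and no matches overlapped. Each run is 80 bases, read 5′ to 3′ on the strand of the gene, and holds no exon of a protein-coding gene. The runs are, in order, upstream of *Onecut1* (chr9:74769038-74769117, plus strand), upstream of *Cebpa* (chr7:34818638-34818717, plus), in an intron of *Foxa1* as GENCODE annotates it (chr12:57592996-57593075, minus), upstream of *Foxa2* (chr2:147889060-147889139, minus), upstream of *Nr5a2* (chr1:136888187-136888266, minus), and upstream of the first *Hnf4a* start (chr2:163348648-163348727, plus).
Onecut1: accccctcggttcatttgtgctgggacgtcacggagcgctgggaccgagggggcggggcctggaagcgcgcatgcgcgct
Cebpa: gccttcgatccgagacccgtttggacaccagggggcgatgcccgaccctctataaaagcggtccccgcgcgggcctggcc
Foxa1: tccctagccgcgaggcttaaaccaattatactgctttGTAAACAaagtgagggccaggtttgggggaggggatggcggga
Foxa2: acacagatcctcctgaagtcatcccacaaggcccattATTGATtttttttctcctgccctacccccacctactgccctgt
Nr5a2: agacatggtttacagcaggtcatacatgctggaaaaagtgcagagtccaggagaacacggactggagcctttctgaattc
Hnf4a: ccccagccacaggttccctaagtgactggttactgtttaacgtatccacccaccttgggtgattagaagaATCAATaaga

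The ONECUT core stood at position -213 of the first *Foxa2* start and, on the opposite strand, at -59 of the first *Hnf4a* start. It was found in 6.72% of all 32851 windows of this length. The FOXA letters stood at -141 of *Foxa1* on the opposite strand and were found in 3.17% of windows. The HNF4A, C/EBP, and NR5A2 letters, held by 0.384%, 0.164%, and 1.33% of all windows, were in none of the 14 windows. The *Onecut1*, *Cebpa*, *Cebpb*, *Foxa3*, *Prox1*, and *Nr5a2* windows held none of the letters searched, and the first 4 of these were GC-rich, at 71.6%, 66.4%, 81.6%, and 68.8% against a median of 52.4% over all windows. The second *Foxa2* window and the first *Prox1* window were at 67.2% and 64.8%, and the *Nr5a2* windows at 43.2% and 49.6%. The windows with a match were at 62% (*Foxa1*), 50.8% (first *Foxa2*), and 51.2% (first *Hnf4a*). A match describes letters only, and a window without one says nothing of whether the factor binds there.

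Levels are given as CPM, the counts of a gene scaled to a common library size with TMM factors, or as TPM, which also divides by gene length. Libraries held between 28826367 and 45266387 counts assigned to genes. *Mcl1* was 1.77 lower on the log2 scale in Mcl1 KO than in WT livers (adjusted p = 0.000605) and 1.87 lower in the libraries labelled Mcl1 Sting1 DKO than in those labelled Sting1 KO (adjusted p = 0.00145), so the *Mcl1* labels hold in the counts. *Sting1* was at 2.11 to 2.53 CPM in WT and at 1.16 to 2.7 CPM in the libraries labelled Sting1 KO, which overlapped. It was at 3.67 to 6 CPM in Mcl1 KO and lower, at 1.9 to 2.53 CPM, in the libraries labelled Mcl1 Sting1 DKO, which did not overlap. Reads of *Sting1* thus remained in all libraries, and its gene-level counts do not show the deletion between WT and Sting1 KO. The allele is not given in the sources used here, so these counts cannot check it. Markers of hepatocytes were high in every library, with 10 markers summing to 93380.6 to 153123 TPM, and none of the 10 passed the test in Mcl1 KO against WT. Mcl1 KO replicate 3 carried markers of exocrine pancreas at 16983.4 TPM, against 13.3 to 49.9 TPM in the other 11 libraries, and of skeletal muscle at 1083 TPM. Y-linked genes were expressed in WT replicates 2 and 3 and in DKO replicate 1 but not in the other 9 libraries.

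On the per-length scale, which allows different genes to be compared, *Cebpa* was the most abundant of the 9 in WT livers at 618 ± 13.4 TPM (SD, n = 3), followed by *Hnf4a* at 486 ± 25.6 TPM, and the libraries of these genes did not overlap. *Cebpb* (131 ± 51.3 TPM) and *Foxa3* (127 ± 42.2 TPM) came next and overlapped. *Onecut1* (41.3 ± 5.13 TPM), *Foxa2* (39 ± 5.86 TPM), *Nr5a2* (30.9 ± 3.56 TPM), and *Prox1* (28.8 ± 10.5 TPM) followed, each overlapping its neighbor. *Foxa1* was the lowest at 8.95 ± 1.6 TPM, below every library of the others. In Mcl1 KO livers *Hnf4a* led at 347 ± 114 TPM and overlapped *Cebpa* at 292 ± 97.4 TPM. *Onecut1* had moved from the fifth to the eighth place, at 8.57 ± 7.18 TPM, which was also its place in the libraries labelled Mcl1 Sting1 DKO (11.1 ± 4.9 TPM) and Sting1 KO (10.4 ± 1.96 TPM).

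**Figure D1:**
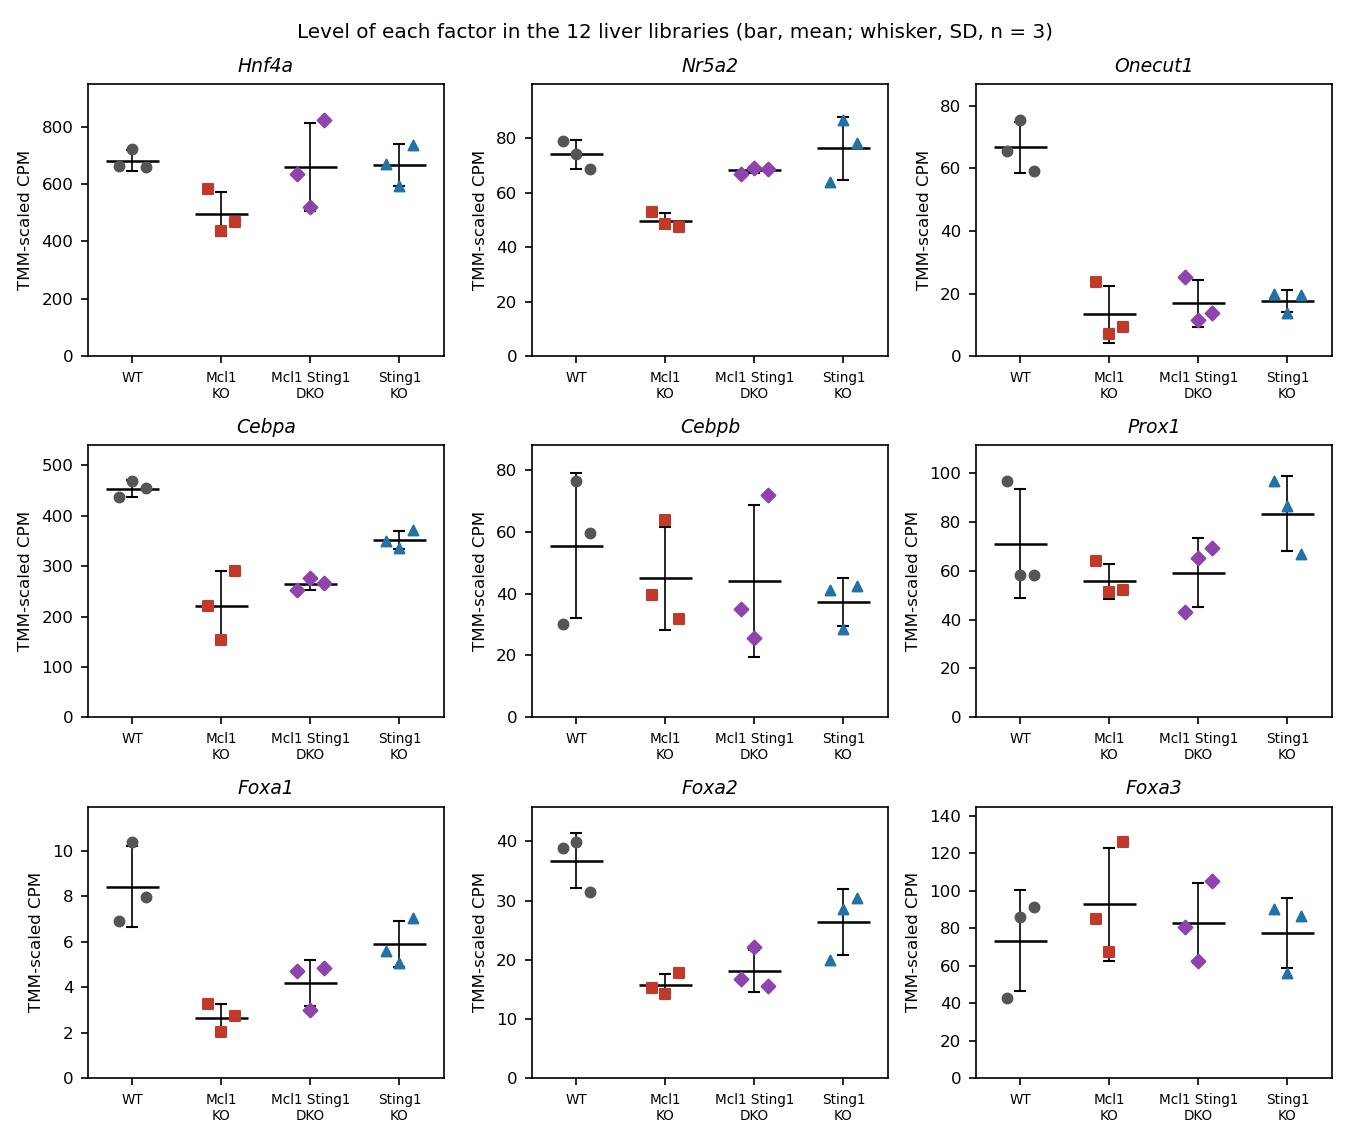
Level of each of the 9 factors in CPM (vertical axis, from 0, scaled by TMM factors) in the 12 liver libraries, grouped by genotype on the horizontal axis; points are libraries in the order of their replicate numbers, horizontal bars are means, and whiskers are SD (n = 3). *Onecut1* was at 59.2 CPM or more in the WT libraries and at 25.4 CPM or less in the other 9, whereas *Cebpb* and *Foxa3* overlapped between all genotypes.

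*Onecut1*, on chromosome 9 (74769118 to 74800594, plus strand), was at 65.6, 75.4, and 59.2 CPM in the WT libraries and at 23.6, 7.22, and 9.2 CPM in the Mcl1 KO libraries. It was at 25.4, 11.5, and 13.8 CPM in the libraries labelled Mcl1 Sting1 DKO and at 19.8, 13.7, and 19.7 CPM in those labelled Sting1 KO. Each WT library thus lay above every library of the other genotypes, which overlapped one another. Mcl1 KO replicate 1 had the highest *Onecut1* of its group. The difference of Mcl1 KO from WT was -2.31 ± 0.42 (log2 fold change ± SE, n = 3 per group; 95% confidence interval, -3.22 to -1.4; edgeR adjusted p = 0.00483). *Onecut1* ranked 82nd from the lowest fold change of the 15070 genes tested. Part of its last exon is shared with the noncoding gene *Gm20649*, which is given with the overlapping transcripts.

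The difference of the libraries labelled Sting1 KO from WT was nearly as large for *Onecut1*, at -1.91 ± 0.41 (95% confidence interval, -2.8 to -1.01), and here the unadjusted p of 0.000572 gave an adjusted p of 0.575. This call depended on the test. *Onecut1* passed the threshold with DESeq2 (adjusted p = 0.00165) and when WT and Sting1 KO libraries were fitted alone (adjusted p = 0.0363), but not with limma voom (adjusted p = 0.502) and in none of the 12 fits made with 1 library omitted (adjusted p from 0.128 to 1). Between the libraries labelled Mcl1 Sting1 DKO and Sting1 KO the difference was -0.07 (95% confidence interval, -0.94 to 0.8). The difference of the *Mcl1* effect on *Onecut1* between the backgrounds was thus estimated at 2.24 on the log2 scale (95% confidence interval, 1 to 3.48). This difference of effects did not pass the threshold across all genes (edgeR unadjusted p = 0.00204, adjusted p = 0.252). It did with DESeq2 (adjusted p = 0.00949), which called 170 genes. It also did without Mcl1 KO replicate 1 (2.94, edgeR adjusted p = 0.0124), where 1574 genes were called.

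The pioneer factors *Foxa1* and *Foxa2* fell in Mcl1 KO livers and *Foxa3* did not pass the test. *Foxa1*, on chromosome 12 (57587414 to 57593702, minus strand), was at 6.94, 10.4, and 7.96 CPM in WT and at 3.25, 2.05, and 2.72 CPM in Mcl1 KO. It was at 4.71, 3.02, and 4.84 CPM in the libraries labelled Mcl1 Sting1 DKO and at 5.62, 5.07, and 7.05 CPM in those labelled Sting1 KO. All 6 libraries with *Mcl1* deleted lay below all 6 with *Mcl1* intact. The log2 fold change of Mcl1 KO against WT was -1.63 ± 0.25 (adjusted p = 0.00235). *Foxa1* had the fewest reads of the 9, with 67 to 349 counts per library.

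*Foxa2*, on chromosome 2 (147884797 to 147889005, minus strand), was at 38.9, 39.9, and 31.5 CPM in WT and at 15.2, 14.2, and 17.8 CPM in Mcl1 KO. It was at 16.8, 22.2, and 15.5 CPM in the libraries labelled Mcl1 Sting1 DKO and at 20, 28.6, and 30.4 CPM in those labelled Sting1 KO. The WT libraries stood above all others, and the Sting1 KO libraries stood between WT and Mcl1 KO without overlapping either. The log2 fold change of Mcl1 KO against WT was -1.22 ± 0.19 (adjusted p = 0.00269). *Foxa3*, on chromosome 7 (18747209 to 18757471, minus strand), was at 42.6, 86.2, and 91.5 CPM in WT, at 84.8, 67.6, and 126 CPM in Mcl1 KO, at 80.7, 62.8, and 105 CPM in Mcl1 Sting1 DKO, and at 90, 55.9, and 86.5 CPM in Sting1 KO. Its genotypes overlapped throughout, and the interval of its difference between Mcl1 KO and WT ran from -0.36 to 1.04 on the log2 scale (0.34, adjusted p = 0.466).

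Of the bZIP factors, *Cebpa* fell and *Cebpb* did not pass the test, and the difference between them was not tested. *Cebpa*, on chromosome 7 (34818718 to 34821353, plus strand), was at 437, 469, and 456 CPM in WT and at 220, 154, and 290 CPM in Mcl1 KO. It was at 253, 277, and 266 CPM in the libraries labelled Mcl1 Sting1 DKO and at 349, 335, and 372 CPM in those labelled Sting1 KO. As with *Foxa1*, all 6 libraries with *Mcl1* deleted lay below all 6 with *Mcl1* intact, and within the intact libraries those labelled Sting1 KO lay below WT. The log2 fold change of Mcl1 KO against WT was -1.04 ± 0.19 (adjusted p = 0.00563). *Cebpb*, on chromosome 2 (167530835 to 167532338, plus strand), was at 30.2, 76.4, and 59.7 CPM in WT, at 39.5, 63.7, and 31.8 CPM in Mcl1 KO, at 34.9, 25.5, and 71.9 CPM in Mcl1 Sting1 DKO, and at 41.2, 28.5, and 42.5 CPM in Sting1 KO. *Cebpb* varied by more than a factor of 2 within WT, Mcl1 KO, and Mcl1 Sting1 DKO livers, and the interval of its difference between Mcl1 KO and WT, -1.19 to 0.59, was the second widest of the 9 (-0.3, adjusted p = 0.626).

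Of the nuclear receptors, *Nr5a2* fell and *Hnf4a* did not pass the threshold. *Nr5a2*, on chromosome 1 (136770303 to 136888186, minus strand), was at 79.1, 74.2, and 68.8 CPM in WT and at 53, 48.5, and 47.6 CPM in Mcl1 KO. It was at 67, 69.2, and 68.6 CPM in Mcl1 Sting1 DKO and at 63.9, 86.7, and 78.2 CPM in Sting1 KO. The Mcl1 KO libraries lay below those of every other genotype. The log2 fold change against WT was -0.57 ± 0.13 (adjusted p = 0.0127). This was the smallest of the called changes, and the call was lost when no normalization factors were used (-0.38, adjusted p = 0.0707) and when Mcl1 KO and WT libraries were fitted alone (-0.55, adjusted p = 0.0621).

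*Hnf4a*, on chromosome 2 (163348728 to 163414830, plus strand), was at 662, 723, and 659 CPM in WT and at 581, 438, and 468 CPM in Mcl1 KO. It was at 635, 521, and 823 CPM in Mcl1 Sting1 DKO and at 669, 592, and 736 CPM in Sting1 KO. The Mcl1 KO libraries lay below all WT libraries. The difference was -0.46 ± 0.18 (95% confidence interval, -0.86 to -0.06; unadjusted p = 0.0288; adjusted p = 0.0958). It passed the threshold in 1 of the 12 fits with a library left out, that without Mcl1 KO replicate 1 (-0.59, adjusted p = 0.0342), where 5232 genes were called. *Prox1*, on chromosome 1 (189850232 to 189904637, minus strand), was at 96.8, 58.2, and 58.2 CPM in WT, at 63.9, 51.3, and 52 CPM in Mcl1 KO, at 43.2, 65.2, and 69.4 CPM in Mcl1 Sting1 DKO, and at 96.8, 86.6, and 66.9 CPM in Sting1 KO. The genotypes overlapped, with a difference of -0.35 between Mcl1 KO and WT (95% confidence interval, -0.87 to 0.17; adjusted p = 0.306). With Y-linked expression as a covariate the *Prox1* difference was -0.77 (adjusted p = 0.0256), and WT replicate 1, the WT library without Y-linked expression, was the one at 96.8 CPM.

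Across the 9 factors, 5 were called lower in Mcl1 KO against WT, where 20.2% of all genes tested were called in either direction and 9.43% were called lower. The libraries did not overlap for 6 factors, all lower, against 17.1% of all genes lower without overlap. The median log2 fold change of the 9 was -0.57, and that of all genes tested was 0. All 5 calls were kept in each of the 12 fits that left out 1 library, the library with pancreatic markers included. Y-linked genes were expressed in WT replicates 2 and 3 and in no Mcl1 KO library. With Y-linked expression as a covariate the 5 calls were kept and *Prox1* was called lower as well. That fit called 1531 of the 15070 genes tested, 638 of them lower. In a whole liver, fewer cells of a type and less RNA per cell cannot be told apart. Markers of other cell types were higher in Mcl1 KO than in WT livers, with 5 of the 5 neutrophil, 5 of 7 stellate cell, 4 of 8 Kupffer cell and macrophage, and 2 of 6 lymphatic endothelium markers tested called higher and none lower. None of the 7 markers tested of cholangiocytes and of the 6 of sinusoidal endothelium was called. The summed stellate markers ranged from 142 to 232 TPM in WT and from 301 to 394 TPM in Mcl1 KO, the Kupffer cell and macrophage markers from 512 to 812 TPM and from 831 to 1284.7 TPM, and the neutrophil markers from 7.26 to 9.97 TPM and from 23.1 to 53.6 TPM. Their part in the changes of the 9 factors was not tested. Small structured RNAs made up 0.172% to 0.369% of WT counts and 0.283%, 2.37%, and 1.36% of the counts of Mcl1 KO replicates 1, 2, and 3. Genes of the mitochondrial genome held 0.58% and 0.565% of the counts of Mcl1 KO replicates 2 and 3, against 1.05% to 1.63% in the other 10 libraries, and these replicates also had the lowest *Onecut1* levels of all 12. The part of the mitochondrial share in the changes was not tested. With the small-RNA share as a covariate, *Foxa1* and *Foxa2* were still called, but *Onecut1* (-1.67, adjusted p = 0.0594), *Cebpa* (-0.82, adjusted p = 0.111), and *Nr5a2* (-0.51, adjusted p = 0.121) were not. In that fit 490 of the 15070 genes tested were called and 86 were called lower, against 3050 and 1421 without the covariate.

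**Figure D2:**
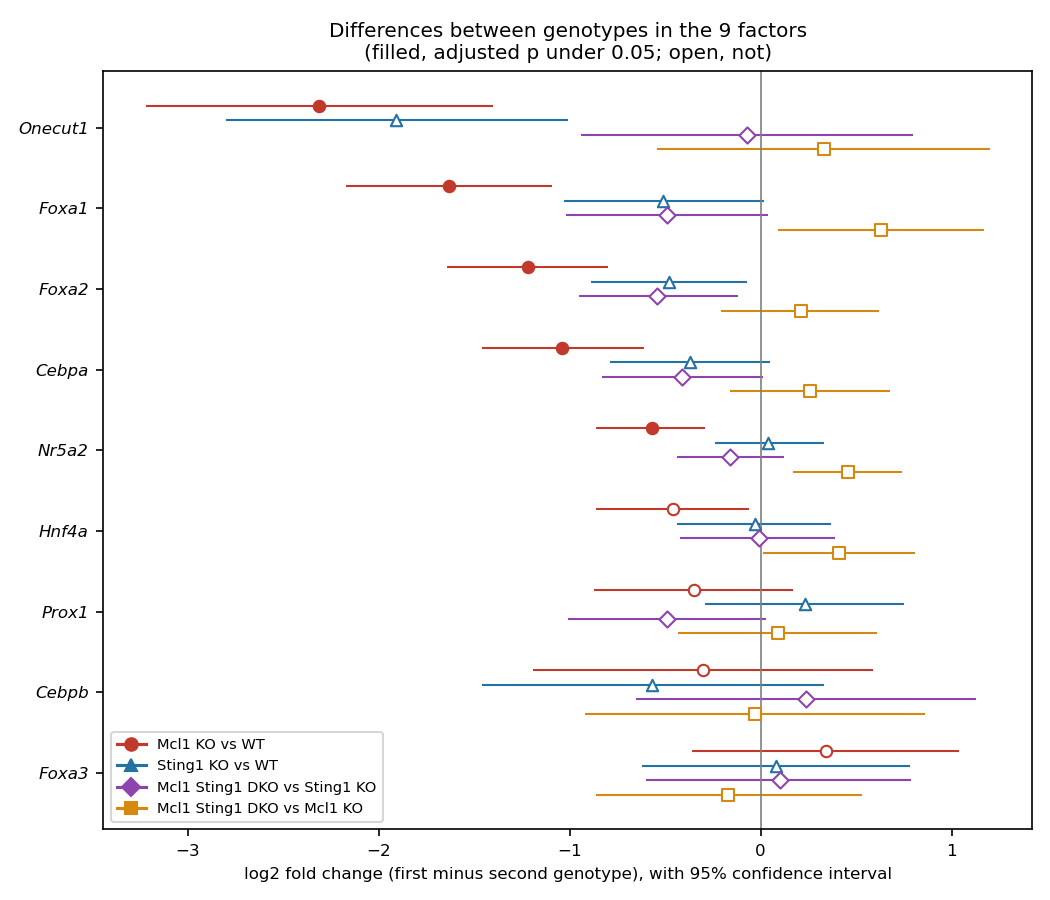
Log2 fold change of each factor (horizontal axis, first minus second genotype) with its 95% confidence interval in 4 comparisons, 3 libraries per genotype; filled points have an adjusted p under 0.05. The filled points are the 5 factors lower in Mcl1 KO than in WT, and the open *Onecut1* triangle at -1.91 is the comparison of Sting1 KO with WT.

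In the libraries labelled as carrying the *Sting1* deletion, the differences with *Mcl1* deletion were nearer to 0 for the 5 factors that fell in Mcl1 KO livers. These 5 were chosen by their difference in Mcl1 KO livers, so a smaller difference elsewhere is in part set by that choice. None of the 9 was called between the libraries labelled Mcl1 Sting1 DKO and Sting1 KO by edgeR, DESeq2, or limma voom, where 0.803% of all genes were called and 0.126% were called lower, and 1 of the 9, *Foxa2* (-0.54, 95% confidence interval, -0.95 to -0.12), had an unadjusted p under 0.05. The *Cebpa* difference was -0.41 (95% confidence interval, -0.83 to 0.01) and the *Foxa1* difference -0.49 (-1.02 to 0.04), and for these genes the libraries did not overlap, against 10.8% of all genes lower without overlap. These intervals do not show that *Mcl1* deletion left the factors as they were. For *Nr5a2* (-0.16, -0.44 to 0.12) and *Hnf4a* (-0.01, -0.42 to 0.39) the libraries overlapped.

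Averaged over both backgrounds, which sets the 6 libraries with *Mcl1* deleted against the 6 with *Mcl1* intact, the same 5 factors were called lower as in Mcl1 KO against WT, of which these samples are a part. Here 16.7% of all genes were called and 6.83% were called lower. The averaged log2 fold changes were -1.19 for *Onecut1*, -1.06 for *Foxa1*, -0.88 for *Foxa2*, -0.72 for *Cebpa*, and -0.37 for *Nr5a2*. The averaged *Nr5a2* call (adjusted p = 0.0189) was lost when no normalization factors were used (-0.21, adjusted p = 0.15) and with the small-RNA share as a covariate (-0.34, adjusted p = 0.0512). *Foxa1* and *Cebpa* were the factors whose 6 libraries did not overlap the other 6, a separation that 2.67% of all genes showed in that direction.

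The direct comparison of the libraries labelled Mcl1 Sting1 DKO with Mcl1 KO called none of the 9 and no gene at all (0.0%). At an unadjusted p under 0.05 stood 3 of the 9, against 20.6% of all genes, and all 3 were higher in the Mcl1 Sting1 DKO libraries. These were *Nr5a2* (0.46, 95% confidence interval, 0.17 to 0.74), *Foxa1* (0.63, 0.09 to 1.17), and *Hnf4a* (0.41, 0.01 to 0.81). The *Nr5a2* libraries did not overlap, at 67 CPM or more against 53 CPM or less. How many of all genes separate in this way in this comparison was not counted. DESeq2 called 681 genes, *Nr5a2* among them (adjusted p = 0.0294), and limma voom called none. The outcome turned on Mcl1 KO replicate 1, without which 3108 genes were called, including *Nr5a2* (0.51, adjusted p = 0.0232) and *Onecut1* (1.04, adjusted p = 0.0418).

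Between the libraries labelled Sting1 KO and WT, both with *Mcl1* intact, no factor and no gene was called (0.0%), while DESeq2 called 51 genes and limma voom none. At an unadjusted p under 0.05 stood *Onecut1* and *Foxa2* (-0.48, 95% confidence interval, -0.89 to -0.07), 2 of the 9 against 5.45% of all genes. The libraries did not overlap for 3 of the 9, *Onecut1*, *Foxa2*, and *Cebpa* (-0.37, -0.79 to 0.05), all lower, against 5.46% of all genes. WT replicates 2 and 3 expressed Y-linked genes and no library labelled Sting1 KO did. Among the libraries without Y-linked expression, WT replicate 1 was at 65.6 CPM for *Onecut1* and the highest Sting1 KO library at 19.8 CPM. For *Foxa2* they were at 38.9 and 30.4 CPM, and for *Cebpa* at 437 and 372 CPM. Only 1 WT library stands in this set, and the part of Y-linked expression in these differences was not tested within it. With Y-linked expression as a covariate over all 12 libraries, no factor and no gene was called in this comparison, as without the covariate.

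The test of whether the effect of *Mcl1* deletion differs between the backgrounds called none of the 9 and no gene (0.0%) with edgeR, while DESeq2 called 170 genes and limma voom none. With unadjusted p under 0.05 stood 5 of the 9, against 14.4% of all genes. They were the 5 factors that fell in Mcl1 KO livers, each with a log2 fold change nearer to 0 between the libraries labelled Mcl1 Sting1 DKO and Sting1 KO, by 2.24 for *Onecut1*, 1.14 for *Foxa1*, 0.69 for *Foxa2*, 0.63 for *Cebpa*, and 0.41 for *Nr5a2*. The difference of Mcl1 KO from WT, by which these 5 were chosen, is part of this contrast, so its direction is in part set by that choice. For *Onecut1*, *Foxa2*, and *Cebpa* the libraries labelled Sting1 KO also lay below WT. Mean *Onecut1* was 66.7 CPM in WT, 13.3 in Mcl1 KO, 16.9 in Mcl1 Sting1 DKO, and 17.7 in Sting1 KO. Without Mcl1 KO replicate 1, *Onecut1* and *Foxa1* (1.31, adjusted p = 0.043) passed the threshold. In that fit 1574 of 15357 genes were called.

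Several noncoding transcripts overlap the factors. The sources used here do not state whether reads were counted by strand, so that reads of overlapping genes on opposite strands may not have been told apart. *Hnf4aos*, a long noncoding RNA on the strand opposite *Hnf4a* (163325137 to 163383642 on chromosome 2), was at 3.22, 4.57, and 3.83 CPM in WT and at 0.786, 0.52, and 1.61 CPM in Mcl1 KO. It was at 1.3, 0.975, and 0.657 CPM in the libraries labelled Mcl1 Sting1 DKO and at 3.52, 3.71, and 5.12 CPM in those labelled Sting1 KO. Every library with *Mcl1* intact was at 3.22 CPM or more and every library with *Mcl1* deleted at 1.61 CPM or less. *Hnf4aos* fell by 1.94 on the log2 scale in Mcl1 KO against WT (SE 0.37; adjusted p = 0.0061) and by 2.02 between the libraries labelled Mcl1 Sting1 DKO and Sting1 KO (SE 0.37; adjusted p = 0.0353). The second call held in 4 of the 12 fits with 1 library left out (adjusted p from 0.0228 to 0.158), and the averaged difference (-1.98, adjusted p = 0.000713) held in all 12. In 9 further fits with another test, scaling, filter, set of samples, or covariate, the first call held in 8 (highest adjusted p, 0.105). The second held in 6 of these 9 (highest adjusted p, 0.0745). Per 100 counts of *Hnf4a* there were 0.486 to 0.632 counts of *Hnf4aos* in WT, 0.526 to 0.695 in Sting1 KO, 0.119 to 0.345 in Mcl1 KO, and 0.0798 to 0.205 in Mcl1 Sting1 DKO. With 17 to 212 counts per library, *Hnf4aos* is a weakly expressed gene.

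*Prox1os*, the noncoding gene opposite *Prox1* (189900844 to 190030181 on chromosome 1), showed the same grouping, at 2.35, 3.5, and 3 CPM in WT, 1.68, 1.19, and 1.26 CPM in Mcl1 KO, 1.24, 1.9, and 1.97 CPM in Mcl1 Sting1 DKO, and 3.58, 3.87, and 3.6 CPM in Sting1 KO. The 6 libraries with *Mcl1* deleted again lay below the 6 with *Mcl1* intact. The differences were -1.06 in Mcl1 KO against WT (adjusted p = 0.0123) and -1.08 between the libraries labelled Mcl1 Sting1 DKO and Sting1 KO (adjusted p = 0.0664). The first was past the threshold in 10 of the 12 fits with a library left out and in 7 of the 9 further fits (highest adjusted p, 0.174). *Prox1* itself, as given above, overlapped between genotypes.

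*Gm20649*, a noncoding gene on the same strand as *Onecut1* that overlaps it (74755745 to 74798758 on chromosome 9), followed *Onecut1* closely. Its last exon lies within the last exon of *Onecut1*, so that reads from there cannot be assigned to one of them and both genes' counts are uncertain. It was at 41.9, 49.1, and 37.3 CPM in WT and at 5.45 to 17.8 CPM in the other 9 libraries. As with *Onecut1*, the WT libraries stood apart from the rest. The ratio to *Onecut1* was 62.9 to 65.2 counts per 100 in WT and 68.2 to 81.9 in the other genotypes. Of the other genes that overlap a factor, *Gm45091*, opposite *Cebpa*, had an averaged difference of -0.84 (edgeR adjusted p = 0.0362) with 11 to 67 counts per library. That call held in 4 of the 12 fits with 1 library left out (adjusted p from 0.0305 to 0.0951). In Mcl1 KO against WT, *Gm45091* was called in none of these 12 fits. *Peds1*, a plasmalogen-forming desaturase gene opposite *Cebpb*, was not called in Mcl1 KO against WT (-0.36, adjusted p = 0.124).

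**Figure D3:**
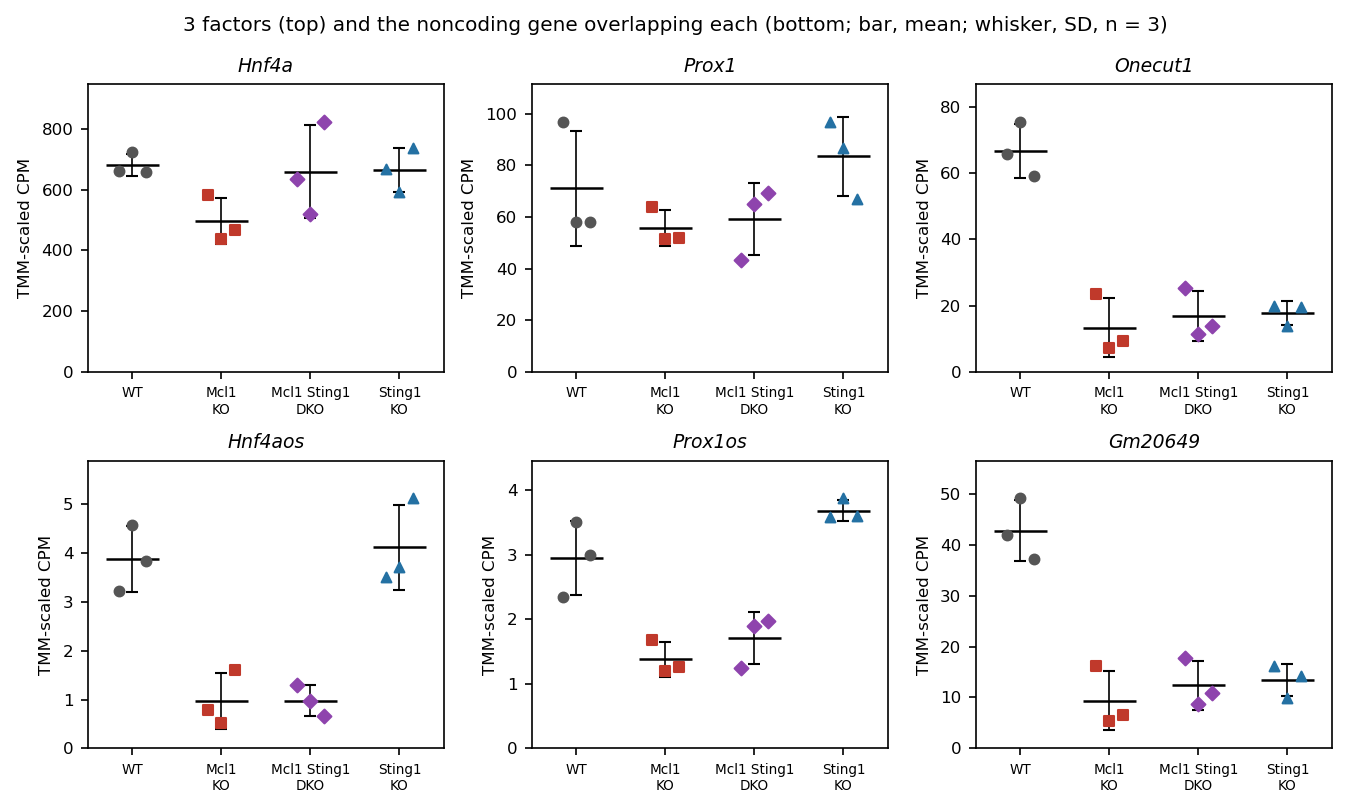
CPM (vertical axes, from 0, scaled by TMM factors) of *Hnf4a*, *Prox1*, and *Onecut1* (top) and of the noncoding gene that overlaps each (bottom) in the 12 libraries by genotype, with bars for means and whiskers for SD (n = 3). *Hnf4aos* was at 1.61 CPM or less in all 6 libraries with *Mcl1* deleted and at 3.22 CPM or more in the other 6, whereas *Hnf4a* overlapped between these sets.

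The wider network moved in part. Of 22 other factors of the hepatocyte network, 6 were called lower and none higher in Mcl1 KO against WT, where 9.43% of all genes tested were called lower. The median log2 fold change of the 22 was -0.48. *Rxra*, the common partner of nuclear receptors, fell from 536 to 293 CPM (-0.87, adjusted p = 0.00973), *Ppara*, the receptor of fatty acid oxidation, from 184 to 104 CPM (-0.83, adjusted p = 0.0264), and *Nfib*, a nuclear factor I gene, from 89.7 to 52.7 CPM (-0.77, adjusted p = 0.026). *Nr2f2* (-0.74) and *Zhx2* (-0.68) were called as well. None of the 22 was called between the libraries labelled Mcl1 Sting1 DKO and Sting1 KO, against 0.803% of all genes, and their median there was -0.24.

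Of 9 paralogs of the 9 factors, 7 had enough counts, and *Ddit3*, the stress-induced C/EBP homolog, was the one called, against 20.2% of all genes, with a rise from 2.57 to 4.97 CPM in Mcl1 KO (0.94, adjusted p = 0.0314). The symbol has a second identifier in the annotation, which was not used here. The other paralogs, *Cebpd* (0.94, adjusted p = 0.0844), *Cebpe*, *Cebpg*, *Hnf4g*, *Onecut2*, and *Prox2*, did not pass. Of 10 coregulators 3 fell, against 9.43% of all genes, namely the nuclear receptor coactivators *Ncoa1* (-0.61), *Ncoa2* (-0.69), and *Ncoa3* (-0.7), with adjusted p of 0.0335, 0.0159, and 0.0207.

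Genes known as targets of the factors were counted in the same way. Of 20 targets of HNF4A, 10 fell and 1 rose in Mcl1 KO against WT, where 20.2% of all genes were called and 9.43% fell. *Hnf4a* itself did not pass the threshold. *Slc10a1*, the bile acid uptake transporter, was at 852, 658, and 796 CPM in WT and at 292, 169, and 359 CPM in Mcl1 KO (-1.49, adjusted p = 0.00443). *Cyp8b1*, the sterol 12-hydroxylase of bile acid synthesis, fell from 324 to 69 CPM (-2.23, adjusted p = 0.0338). *Pklr*, liver pyruvate kinase, fell from 290 to 105 CPM (-1.46, adjusted p = 0.0294), whereas *Apoa4*, a lipoprotein gene, rose from 201 to 1406 CPM (2.81, adjusted p = 0.00963). None of the 20 was called between the libraries labelled Mcl1 Sting1 DKO and Sting1 KO, against 0.803% of all genes, with a difference of -0.87 for *Slc10a1* (adjusted p = 0.181).

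Of 13 targets of C/EBP factors none was called lower and 1 was called higher, the iron hormone gene *Hamp* (0.79, adjusted p = 0.0178). The acute-phase genes *Saa1* (-2.72, adjusted p = 0.103) and *Saa2* (-3, adjusted p = 0.104) had large differences that did not pass. A count of 1 among 13 is below the 20.2% of all genes called. Of 8 targets of FOXA factors none was called lower and 1 was called higher, against 20.2% of all genes called. This was the insulin-like growth factor binding protein gene *Igfbp1* (2.48, adjusted p = 0.0475). Of 8 targets of NR5A2, *Cyp8b1*, counted above as well, and the sterol exporter gene *Abcg8* (-1.38, adjusted p = 0.00576) fell, against 9.43% of all genes. Albumin, a target of both C/EBP and FOXA factors, differed by 0.05 (adjusted p = 0.902). In both the C/EBP and the FOXA list no gene was called between the libraries labelled Mcl1 Sting1 DKO and Sting1 KO, where 0.803% of all genes were called.

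**Figure D4:**
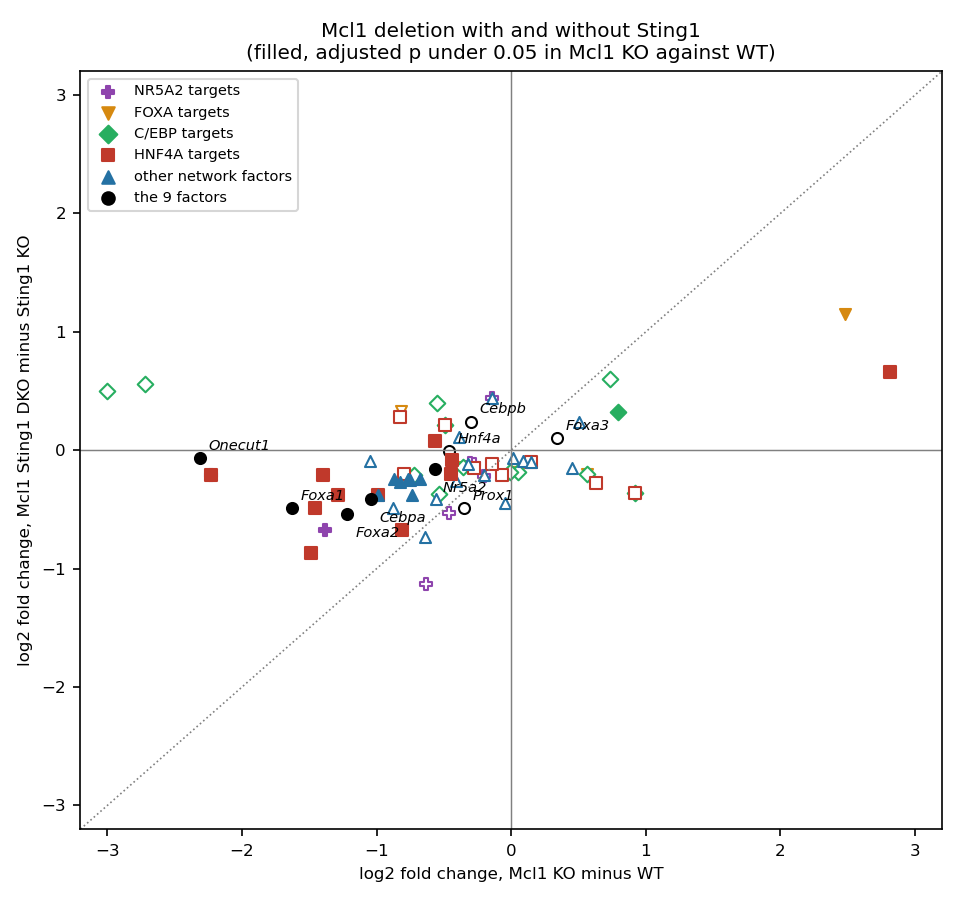
Log2 fold change between Mcl1 KO and WT (horizontal axis) against that between Mcl1 Sting1 DKO and Sting1 KO (vertical axis) for the 9 factors, 22 other factors of the network, and the lists of targets; filled points have an adjusted p under 0.05 on the horizontal axis and the dotted line marks equal values. *Onecut1* lies at -2.31 and -0.07, and the 4 other factors called lie above the dotted line.

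Over the 12 libraries the 5 factors that fell varied together, with Pearson's r of log2 CPM from 0.49 (*Onecut1* with *Nr5a2*) to 0.89 (*Cebpa* with *Foxa1* and with *Foxa2*) in their 10 pairs. *Foxa3* stood apart, with r from -0.48 to 0.42, and so did *Cebpb*, with r from -0.27 to 0.42. These values describe libraries that share genotypes and normalization. The 5 were chosen for a difference between genotypes in the same libraries, so their positive r is in part set by that choice. *Hnf4a*, which was not called, had r from 0.41 (*Foxa2*) to 0.82 (*Foxa1*) with these 5. Among the genes outside the 9, the one most like *Onecut1* was the overlapping *Gm20649* (0.997), followed by *Hivep1* (0.932) and *Vcpip1* (0.924). The most like were *Ido2* (0.968), *Ces2a* (0.956), and *Nfix* (0.955) for *Cebpa*, *Pou6f1* (0.963), *Grsf1* (0.962), and *Glo1* (0.959) for *Foxa1*, and *Pcgf5* (0.947), *Kdm1b* (0.932), and *Rsbn1l* (0.909) for *Foxa2*. For *Hnf4a* they were *Pi4ka* (0.969), *Agpat3* (0.955), and *Yy1* (0.937), for *Nr5a2* they included *AU022252* (0.956) and *Ppp2r5d* (0.934), and for *Prox1* *Mat1a* (0.94), *Enpp1* (0.914), and *Agt* (0.899). *Cebpb* and *Foxa3* had no gene as close, with *Mbd1* (0.885), *Tsc22d1* (0.859), and *Nsun2* (0.851) nearest to *Cebpb* and *Ctsz* (0.85), *Rcc1l* (0.842), and *Creb3l3* (0.799) nearest to *Foxa3*.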

How the data were processed

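Total RNA of whole livers was sequenced on an Illumina NovaSeq platform. The deposited values are raw counts per gene, which the authors obtained with STAR and featureCounts on GRCm39 per the submitters' processing notes; versions, annotation release, and strand setting are not given in the sources used here. The members, lists, and tests were chosen with earlier results of these data known. Counts of all 12 libraries were fitted with edgeR 4.0.16 (R 4.3.3; TMM factors, filterByExpr, quasi-likelihood test, 1 coefficient per genotype, prior count of 2, common dispersion 0.0699), and p-values were adjusted by Benjamini-Hochberg over the 15070 genes tested, with a threshold of 0.05. Totals of 28826367 to 45266387 counts set the precision. The labels give genotypes and 3 numbered replicates of each, which were taken as separate livers. Each p-value sets a difference against a spread estimated per gene over all 12 libraries, with information shared between genes. TPM used summed exon lengths of GENCODE vM39. RefSeq promoter windows came from a GRCm38.p6 table and were placed on GRCm39 by exact match. Alternatives were DESeq2 1.42.0, limma voom 3.58.1, other scalings, filters, samples, covariates, and leaving out each library. Scripts were tested on simulated data. Named genes are all 9 members, *Mcl1* and *Sting1*, up to 4 called genes of each list with the largest change, the 3 genes most like each member (mean of at least 1 CPM), and overlapping genes; *Nr2f2*, *Zhx2*, uncalled list genes such as *Saa1*, *Cebpd*, and albumin were added after their values were seen. Promoter sequence is not shown where it is exonic. Some genes that the rule names are not reported here.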

Additional observations from a re-analysis of the deposited data

How the results depend on the processing

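The number of the 9 factors called in Mcl1 KO against WT was 5 in the fit with the replicate block as well, and 0, 5, 0, 0, and 0 with the replicate block in the other 5 comparisons, so that this block changed no call of a factor; same-numbered libraries did not deviate together in every pair (correlations from -0.09 to 0.25), and the numbers were not taken to pair the livers. With small structured RNA content added to the model, 2 factors were called in Mcl1 KO against WT, where 490 of all genes were called, and the cause was not tested. With DESeq2, 1 factor was called in Mcl1 Sting1 DKO against Mcl1 KO, 1 in Sting1 KO against WT, and 1 in the difference of the *Mcl1* effect, and with only the compared genotypes fitted 1 was called in Sting1 KO against WT. With 1 library left out at a time, 5 to 6 factors were called in Mcl1 KO against WT, and 0 to 2 both in Mcl1 Sting1 DKO against Mcl1 KO and in the difference of the effect, where Mcl1 KO replicate 1 decided the count. No factor called in the main analysis changed direction in any alternative. Counts of all genes called ranged from 490 to 5232 in Mcl1 KO against WT, from 1521 to 4267 in the averaged comparison, from 1 to 461 between the libraries labelled Mcl1 Sting1 DKO and Sting1 KO, from 0 to 3108 in Mcl1 Sting1 DKO against Mcl1 KO, from 0 to 51 in Sting1 KO against WT, and from 0 to 1574 in the difference of the effect. Low counts limit the precision of *Foxa1* (67 to 349 per library), *Hnf4aos* (17 to 212), and *Gm45091* (11 to 67).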
